A study of Mus musculus with 6 samples.

Results

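Among the genes for actin-monomer binders, deletion of Cap1 in the embryonic mouse brain lowered Cap1 itself, and none of the other members passed the test in either direction. The members are the 8 genes of the deposited table whose symbol is Cap1, Cap2, Pfn1, Pfn2, Twf1, Twf2, Tmsb4x or Tmsb10, out of 27179 genes in all. They were chosen by name, for encoding proteins that bind unpolymerised actin. All 8 passed the filter on low values, which asked for an average of 1 CPM or more (a gene's reads, scaled to a library of fixed size).

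RNA was sequenced after poly(A) selection from cerebral cortex of C57BL/6N embryos at E18.5, shortly before birth. The Control group (3 libraries, called FF1, FF2 and FF4) carried Cap1 flx/flx, that is, Cap1 alleles flanked by recombination sites and no Cre. The CAP1-KO group (3 libraries, FCRE3, FCRE4 and FCRE5) carried the same alleles with Nestin-Cre, a Cre recombinase whose promoter is active in neural progenitors, so cells of other origin, such as microglia, are outside its main range. Both groups are floxed and no group carried Cre alone, so an effect of Cre cannot be told apart from one of Cap1 loss. The design asks how loss of this actin-binding protein changes gene expression in neurons.

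Actin exists as monomers and as filaments, and cells hold much of the monomer bound to small proteins. Beta-thymosins (Tmsb4x, Tmsb10) sequester ATP-actin and keep it from polymerising, whereas profilins (Pfn1, Pfn2) exchange its nucleotide and hand it to growing filament ends. Cyclase-associated proteins (Cap1, Cap2) help cofilin take filaments apart and recharge the released monomer, and twinfilins (Twf1, Twf2) bind ADP-actin and act at filament ends. Free actin monomer also holds the MRTF coactivators of the transcription factor SRF in the cytoplasm, and actin genes are themselves targets of SRF.

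Sequences upstream of a transcription start listed in RefSeq are shown for the most abundant member, for Pfn1 and, for contrast, for the cytoplasmic actin gene Actg1. They are from RefSeq (GRCm38.p6), each 250 bases ending at the base before that start, on the minus strand, and capitals mark a CArG box, the sequence element that SRF binds. The Tmsb4x stretch is chrX:167209219-167209468, the Pfn1 stretch chr11:70654651-70654900 and the Actg1 stretch chr11:120348496-120348745. The Actg1 start is the 5′ end of its annotated gene, whereas those used for Tmsb4x and Pfn1 are internal starts, so these stretches lie within the annotated genes.
Tmsb4x: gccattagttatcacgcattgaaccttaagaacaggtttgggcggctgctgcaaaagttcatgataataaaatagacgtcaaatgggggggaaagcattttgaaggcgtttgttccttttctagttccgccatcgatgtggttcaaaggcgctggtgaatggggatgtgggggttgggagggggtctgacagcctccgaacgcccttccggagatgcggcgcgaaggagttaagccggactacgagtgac
Pfn1: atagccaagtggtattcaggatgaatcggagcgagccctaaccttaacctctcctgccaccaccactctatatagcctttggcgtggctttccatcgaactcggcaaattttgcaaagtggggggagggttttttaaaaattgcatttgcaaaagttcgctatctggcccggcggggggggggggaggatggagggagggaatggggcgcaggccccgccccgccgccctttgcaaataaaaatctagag
Actg1: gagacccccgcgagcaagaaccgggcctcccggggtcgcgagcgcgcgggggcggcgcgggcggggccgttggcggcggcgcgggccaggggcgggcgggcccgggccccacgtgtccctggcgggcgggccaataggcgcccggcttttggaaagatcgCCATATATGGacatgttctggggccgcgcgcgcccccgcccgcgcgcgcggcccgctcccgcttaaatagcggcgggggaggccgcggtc

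RefSeq windows, which run from 250 bases before to 50 after a start, were matched by symbol for 7 of the 8 members, with 3 windows for Tmsb10 and 1 for each of the others. The windows of Pfn1, Twf1 and Tmsb4x, and all but the outermost of Tmsb10, belong to starts inside the annotated gene. None of them held an exact CArG box on either strand, against 1.63% of 32851 such windows over all genes. The windows of Acta1, Actc1 and Actg1 held 1 each, beginning at -73, -47 and -90 from the start. That of Acta2 held 0, but it belongs to a start inside the annotated gene, so the stretch before the gene's 5′ end was not scanned. The letters TATAAA, the core of a TATA box, were in no member's window on either strand, against 13.6% of all windows. A match or its absence here describes these letters in this window.

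Recovered sequencing depth lay between 32443864 and 36302598 reads per library. Of 13885 genes tested, 78 were higher and 56 lower in CAP1-KO (limma, Benjamini-Hochberg adjusted p under 0.05), which is 0.562% and 0.403%. These counts rested on single libraries, above all FF4: without it 1292 genes were higher and 2622 lower. Neuronal transcripts were abundant in this tissue: the 6 markers Tubb3, Map2, Stmn2, Snap25, Neurod6 and Tbr1 summed to between 5731 and 6482 CPM in Control and between 5585 and 5638 CPM in CAP1-KO. In bulk tissue, fewer cells of a type and less RNA per cell cannot be told apart. The labels call the libraries biological replicates and do not tie a library to a litter or a sequencing run.

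Cap1 was the member that changed. It measured 194, 193 and 166 CPM in FF1, FF2 and FF4, against 86.6, 85.9 and 82.9 CPM in FCRE3, FCRE4 and FCRE5. The groups stood far apart, FF4 was the lowest Control library, and the CAP1-KO libraries lay close together. The group means were 184 ± 16.2 and 85.1 ± 2.0 CPM (SD, n = 3 each), and the log2 fold change on the log2(CPM + 1) scale was -1.10 (95% confidence interval -1.26 to -0.94, limma adjusted p = 0.000283). In the authors' deposited table the log2 fold change was -1.11 with an FDR of 1.88e-05. Only 8 of the 13885 tested genes had a more negative change. As Cap1 is the deleted gene, this checks the labels. Its reads numbered between 2843 and 3232 in each CAP1-KO library, and the labels do not name the deleted exons, so how many of these reads come from intact transcript is not known.

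Cap1 (gene number 12331) lies on GRCm38 chromosome 4 from 122859048 to 122886076, minus strand, and its exons overlap those of Ppt1, a lysosomal thioesterase gene on the opposite strand. Ppt1 measured 45.9 ± 2.78 in Control and 54.6 ± 2.14 CPM in CAP1-KO (limma adjusted p = 0.0949). The library kit keeps strand, but whether the authors counted by strand is not given in the sources used here.

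Cap2, the paralog best known from heart and skeletal muscle and also present in brain, was not higher. It measured 26.1, 26.3 and 25.4 CPM in FF1, FF2 and FF4, against 23.6, 25.1 and 24.5 CPM in FCRE3, FCRE4 and FCRE5. All 3 CAP1-KO libraries lay below all 3 Control libraries, by a small margin. The log2 fold change was -0.08 (95% confidence interval -0.21 to 0.04, limma adjusted p = 0.390), so the upper bound of the interval is a 1.03-fold increase. The gene lies on chromosome 13 (46501903 to 46650281), and its exons overlap a predicted gene on the opposite strand, Gm35110.

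**Figure D1:**
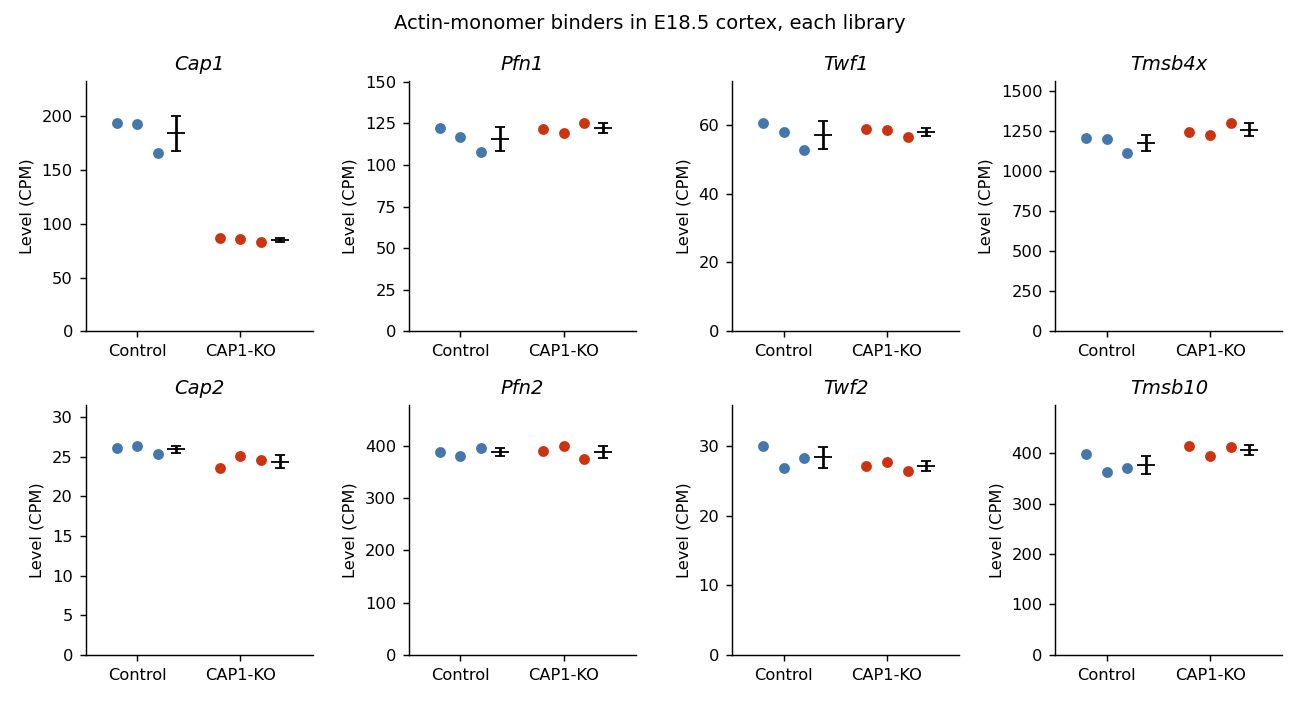
Level of each member (vertical axes, CPM, starting at 0) in the 3 Control libraries (blue) and the 3 CAP1-KO libraries (red); points are libraries and the black bar is the mean ± SD. Cap1 falls from 184 to 85.1 CPM, while the other members stay close to their Control level.

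Both profilins were near their Control level. Pfn1, the ubiquitous profilin, measured 122, 117 and 108 CPM in FF1, FF2 and FF4, against 122, 119 and 125 CPM in FCRE3, FCRE4 and FCRE5. The groups overlapped and FF4 was the lowest library. The log2 fold change was 0.08 (95% confidence interval -0.05 to 0.21, limma adjusted p = 0.429). Pfn2, the profilin enriched in the nervous system, measured 388, 380 and 395 CPM in FF1, FF2 and FF4, and 390, 398 and 374 CPM in FCRE3, FCRE4 and FCRE5. Its groups lay on top of each other. Pfn2 had the narrowest interval of the 8 members, from -0.11 to 0.11 around a log2 fold change of 0.00 (limma adjusted p = 0.9995). Pfn1 lies on chromosome 11 (70651844 to 70656799) and Pfn2 on chromosome 3 (57841895 to 57847757).

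Neither twinfilin passed the test. Twf1, the more widely expressed paralog, measured 60.7, 58.1 and 52.6 CPM in FF1, FF2 and FF4, and 58.8, 58.4 and 56.6 CPM in FCRE3, FCRE4 and FCRE5. All CAP1-KO values lay inside the Control range. Its log2 fold change was 0.02 (95% confidence interval -0.12 to 0.16, limma adjusted p = 0.852). Twf2 measured 30.0, 26.8 and 28.4 CPM in FF1, FF2 and FF4, and 27.2, 27.8 and 26.4 CPM in FCRE3, FCRE4 and FCRE5. The groups overlapped, with a log2 fold change of -0.06 (95% confidence interval -0.20 to 0.08, limma adjusted p = 0.568). Twf1 lies on chromosome 15 (94577948 to 94589884), where its exons overlap those of Irak4 on the opposite strand, and Twf2 on chromosome 9 (106203108 to 106215387).

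The beta-thymosins, the main monomer-sequestering proteins, had the most positive differences among the members, and neither passed the test. Tmsb4x measured 1207, 1200 and 1117 CPM in FF1, FF2 and FF4, against 1248, 1228 and 1304 CPM in FCRE3, FCRE4 and FCRE5. Every CAP1-KO library was above every Control library. The log2 fold change was 0.10 (95% confidence interval -0.05 to 0.25, limma adjusted p = 0.386). Tmsb10, highly expressed in the developing brain, measured 397, 362 and 371 CPM in FF1, FF2 and FF4, and 413, 395 and 411 CPM in FCRE3, FCRE4 and FCRE5. The groups overlapped at FF1 and FCRE4. Its log2 fold change was 0.11 (95% confidence interval -0.01 to 0.24, limma adjusted p = 0.263), so an increase above 1.18-fold lies outside the interval.

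Tmsb4x lies on the X chromosome (167207093 to 167213479) and Tmsb10 on chromosome 6 (72957347 to 72958748), and embryo sex was not balanced. Xist, the RNA of the inactive X, was abundant in every CAP1-KO library (2398 to 2653 CPM) and in FF2 (2296 CPM), but not in FF1 or FF4 (0.58 and 2.05 CPM). Tmsb4x measured 1200 CPM in FF2, the Control library with Xist, and 1207 and 1117 CPM in FF1 and FF4. Embryo sex and genotype largely coincided, so their parts in the Tmsb4x difference cannot be told apart. With the Xist level as a covariate the log2 fold change of Tmsb4x was 0.07 (95% confidence interval -0.16 to 0.31, limma adjusted p = 0.729). Thymosin beta-4 is also abundant in microglia and in vessel cells. The 10 microglia and macrophage markers summed to between 57.8 and 74.3 CPM in Control and between 85.9 and 108 CPM in CAP1-KO, with none at 0 reads and all 10 with a positive fold change. The 10 endothelial markers summed to between 213 and 237 CPM in Control and between 170 and 190 CPM in CAP1-KO, with none at 0 reads and all 10 with a negative fold change, of which Kdr and Flt1 passed. Of 13 alternatives, 5 called Kdr and 9 called Flt1. Both calls were lost with the Xist covariate or without FF1, FCRE3 or FCRE5. The part of these cells in the Tmsb4x difference was not tested.

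Counted together, 1 of the 8 members was called, against 0.965% of all tested genes (134 of 13885). Of the 7 members other than Cap1, 0 were called by limma, 0 by limma-voom on the recovered reads and 0 had an unadjusted p under 0.05, which 7.74% of all genes had in the higher and 15.3% in the lower direction. Their median log2 fold change was 0.02, beside -0.01 over all genes tested, and they ranged from -0.08 to 0.11. Non-overlapping groups were found for 2 of these 7, beside 25.6% of all tested genes: Tmsb4x was higher in every CAP1-KO library, as were 11.1% of genes, and Cap2 lower, as were 14.6%. A missed threshold does not show that a level is the same, but the intervals of this fit bound it: none of the 7 reached below 0.864-fold or above 1.19-fold. Over the 13 alternatives the bounds were wider, reaching a log2 fold change of -0.31 for Cap2 and 0.36 for Tmsb10, both with the Xist covariate. Without FF4, where limma called 9.31% of all genes higher and 18.9% lower (28.2% together), 0 members were called higher and Cap1 was the single member called lower.

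**Figure D2:**
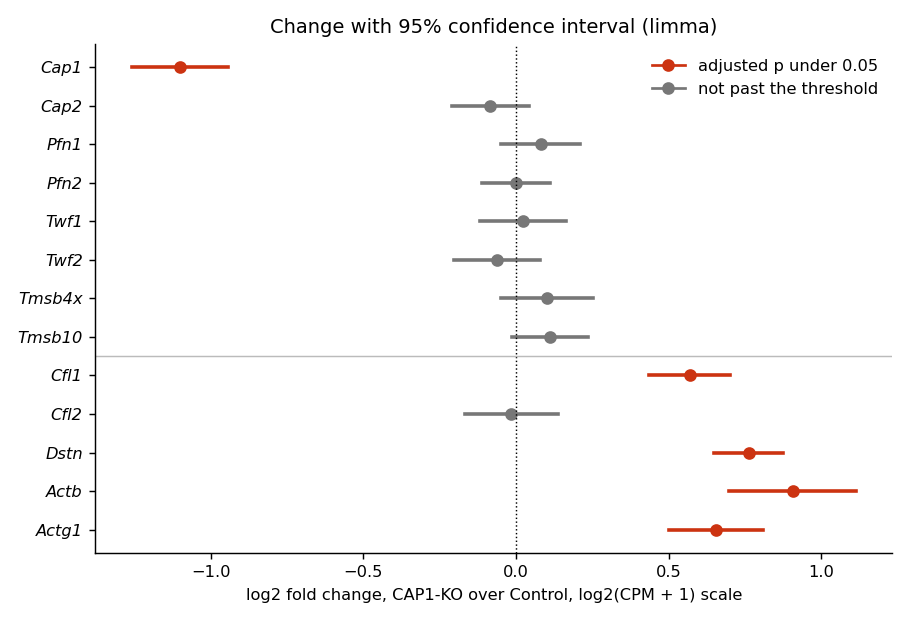
Log2 fold change of CAP1-KO over Control (horizontal axis, log2(CPM + 1) scale) for the 8 members above the grey line and for ADF/cofilin and cytoplasmic actin genes below it; points are estimates, lines 95% confidence intervals, and red marks an adjusted p under 0.05 (limma, 3 libraries a group). Cap1 lies at -1.10, the other members between -0.08 and 0.11, and Actb at 0.91.

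Replicates lay close together. Within-group standard deviations on the log2 scale ran from 0.036 for Cap2 to 0.094 for Cap1, and the median over all tested genes was 0.096. Counting error alone would give coefficients of variation from 0.51% for Tmsb4x to 3.44% for Cap2 in Control. The observed Control coefficients were larger for 7 of the 8 genes, up to 8.77% for Cap1, and smaller for Cap2, at 1.83%. FF4 was the lowest Control library for Cap1, Cap2, Pfn1, Twf1 and Tmsb4x. Its level relative to the mean of FF1 and FF2 was 85.6% for Cap1, 88.6% for Twf1 and 90.2% for Pfn1, with a median of 97.7% over all tested genes. FF4 also differed in regional markers: 6 striatal neuron markers summed to 179 CPM in FF4 against 106 and 108 CPM in FF2 and FF1, and between 143 and 155 CPM in CAP1-KO. Of the neuron markers, Neurod6 measured 451 CPM in FF4 against 655 and 689 CPM in FF1 and FF2, and between 437 and 533 CPM in CAP1-KO. Tbr1 measured 217 CPM in FF4 against 332 and 335 CPM, and between 219 and 244 CPM in CAP1-KO. Stmn2 went the other way, at 1320 CPM in FF4 against 1289 and 1283 CPM. What these differences contribute to the FF4 values of the members was not tested. Without FF4 the log2 fold change of Cap1 was -1.18, that of Pfn1 0.03 and that of Tmsb4x 0.07.

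To compare levels between genes, CPM were divided by the exonic length of the protein-coding transcripts in kilobases. This length merges the exons of all such transcripts of a gene, so it can exceed that of the transcript mainly expressed. It was 1276 bases for Tmsb10, 1026 for Pfn1 and 3541 for Pfn2. Levels compared between genes depend on it: undivided, Pfn2 had 388 CPM and Pfn1 116 CPM in Control. In Control, Tmsb4x had the highest level of the 8 (857 ± 36.8 CPM per kb, n = 3), followed by Tmsb10 (295 ± 14.4), Pfn1 (113 ± 7.12) and Pfn2 (109 ± 2.13). Lower down came Cap1 (66.6 ± 5.84 CPM per kb), Twf1 (18.9 ± 1.36), Twf2 (16.8 ± 0.93) and Cap2 (6.77 ± 0.12). Pfn1 and Pfn2 had overlapping library ranges, as had Twf1 and Twf2, and the other neighbours in this order were separate. In CAP1-KO the order was the same, with Cap1 at 30.8 ± 0.72 CPM per kb still between Pfn2 and Twf1.

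Within the paralog pairs, the CAP pair was the one whose make-up differed without overlap between the groups. As Cap1 is the deleted gene, its fall by itself raises the share of Cap2. Cap2 made up 9.26 ± 0.62% of the summed Cap1 and Cap2 level in Control and 17.2 ± 0.64% in CAP1-KO (n = 3 each), while the level of Cap2 itself was not higher. The 2 CAP genes together measured 73.4 ± 5.96 CPM per kb in Control and 37.1 ± 0.68 CPM per kb in CAP1-KO. Tmsb4x held 74.4 ± 1.01% of the thymosin pair in Control and 74.2 ± 0.46% in CAP1-KO. Pfn1 held 50.7 ± 1.94% and 52.1 ± 1.39% of the profilin pair, and Twf1 held 52.8 ± 1.93% and 54.4 ± 0.35% of the twinfilin pair, with overlapping groups in all 3 pairs. Of the 8 genes summed, thymosins were 77.7 ± 0.03% in Control and 80.4 ± 0.53% in CAP1-KO, and CAP genes were 4.94 ± 0.24% and 2.41 ± 0.09%. The fall of Cap1 is part of both differences.

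The genes for actin itself rose, whereas among the binders only Cap1 passed the test. Of the 6 actin isoform genes 5 were tested by limma, 4 rose and 0 fell, beside 0.562% and 0.403% of all tested genes. With limma-voom or at an unadjusted p under 0.05, 0 fell as well. Actb, cytoplasmic beta-actin, measured 2573, 2704 and 2429 CPM in FF1, FF2 and FF4, and 4873, 4545 and 5028 CPM in FCRE3, FCRE4 and FCRE5 (log2 fold change 0.91, limma adjusted p = 0.00449). Actg1, cytoplasmic gamma-actin, measured between 384 and 433 CPM in Control and between 602 and 664 CPM in CAP1-KO (0.66, limma adjusted p = 0.00484). Acta2, of vascular smooth muscle, rose from 0.80 ± 0.56 to 49.6 ± 13.7 CPM, and Actg2, of visceral smooth muscle, from 3 reads in all of Control to 485 reads in all of CAP1-KO. Acta1, of skeletal muscle, measured 3.21 ± 0.89 and 4.82 ± 1.51 CPM (limma adjusted p = 0.259), and Actc1, of heart muscle, lay below the tested range at 0.30 ± 0.02 and 1.36 ± 0.38 CPM. The 8 meningeal fibroblast markers summed to 18.3, 97.2 and 85.9 CPM in FCRE3, FCRE4 and FCRE5. In the same order Acta2 was at 35.7, 63.2 and 50.1 CPM, lowest in FCRE3, and Actg2 was at 4.83, 4.71 and 3.93 CPM, highest in FCRE3. The part of meningeal cells in these values was not tested. With the Xist covariate or without FCRE5 neither Actb nor Actg1 was called, and Actb was not called without FF1 or with no filter on low values either. In these fits the log2 fold change of Actb stayed between 0.83 and 0.91 and that of Actg1 was 0.56 and 0.63. The treatment of reads that fit more than one actin gene is not given in the sources used here, and Actb with Actg1 made up 99.8% of the summed actin level in Control and 98.9% in CAP1-KO.

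Relative to every family of binders, the actin transcript level was larger in CAP1-KO. Summed over the 6 isoforms, actin measured 1549 ± 83.2 CPM per kb in Control and 2868 ± 140 CPM per kb in CAP1-KO (n = 3 each). Relative to thymosins (CPM per kb over CPM per kb) actin measured 1.34 ± 0.06 in Control and 2.32 ± 0.06 in CAP1-KO, a 1.72-fold ratio. The values within a group depend on the merged exon lengths and are not counts of transcripts. Relative to profilins it measured 6.97 ± 0.35 and 12.5 ± 0.64 (1.80-fold), and relative to twinfilins 43.4 ± 2.83 and 81.5 ± 5.57 (1.88-fold). Relative to the CAP pair it measured 21.2 ± 0.97 and 77.3 ± 5.0 (3.65-fold). None of these ratios overlapped between groups. All share the summed actin level, which did not overlap either, so they are not separate results. Of single tested genes, 25.6% had groups that did not overlap. These are transcript ratios and carry no measure of protein or of monomeric actin.

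**Figure D3:**
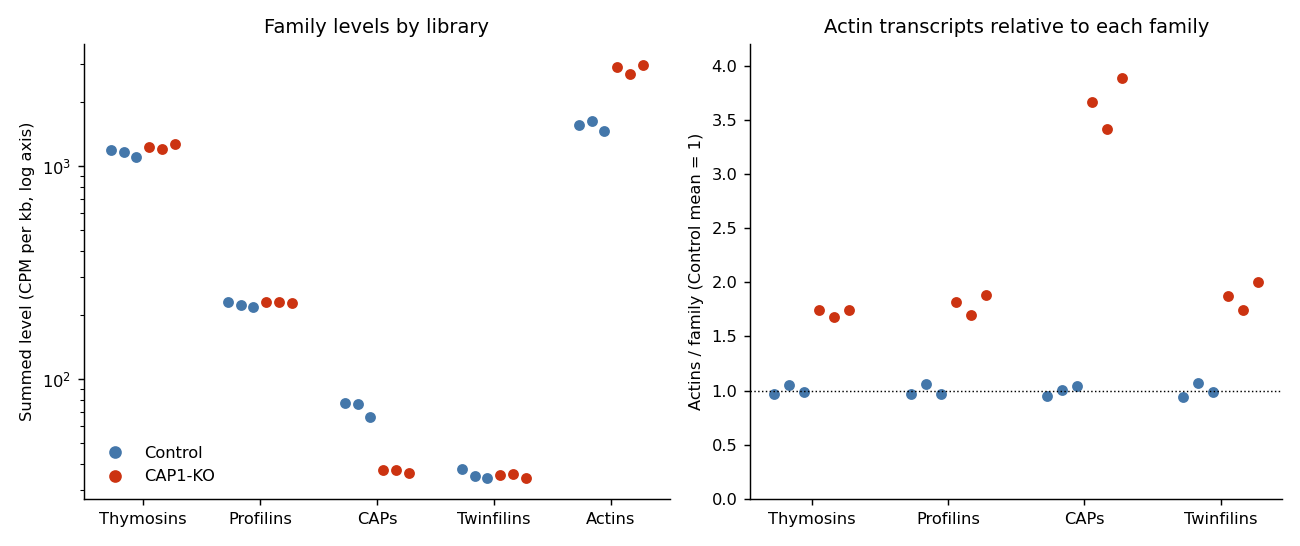
Left, summed level of each binder family and of the 6 actin isoform genes (vertical log axis, CPM per kb) in each Control (blue) and CAP1-KO (red) library. Right, actin level divided by the family's level in the same library, scaled to a Control mean of 1; CAP1-KO libraries reach 1.72-fold for thymosins and 3.65-fold for CAPs on average.

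Taken gene by gene, the ratio to Actb within a library was lower in CAP1-KO for each of the 8 members. The difference in log2 ratio lay between -0.99 (Cap2) and -0.80 (Tmsb10) for the 7 members other than Cap1, and was -2.02 for Cap1. In each of the 8 comparisons the groups did not overlap (exact permutation test, two-sided, p = 0.1, the smallest that 3 against 3 libraries can give, and 0.1 after Benjamini-Hochberg adjustment over the 8). All 8 ratios share Actb as denominator, which was itself higher in every CAP1-KO library than in every Control library (log2 fold change 0.91). A member with a steady, unchanged level would therefore separate too, so this test cannot decide whether a member itself changed. The 8 p-values are not separate results, and adjusting over them does not make them so. The share of all tested genes whose ratio to Actb separates was not determined.

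Among other proteins that bind or use actin monomers, calls upward were found in the ADF/cofilin group and not in the WH2, RPEL or formin groups. Of the 3 ADF/cofilin genes, whose products sever filaments and release monomer, 2 rose and 0 fell, beside 0.562% and 0.403% of all tested genes. Dstn had 201 ± 4.19 and 342 ± 14.5 CPM in the Control and CAP1-KO groups (0.76 on the log2 scale, limma adjusted p = 0.000381). Cfl1 had 910 ± 21.5 and 1350.5 ± 24.4 CPM (0.57, limma adjusted p = 0.00484). Cfl1 was not called with the Xist covariate, without FF1 or without FCRE5, where its log2 fold change was 0.56, 0.55 and 0.55. The third gene, Cfl2, measured 172 and 170 CPM. Summed ADF/cofilin divided by summed actin was 0.341 ± 0.020 in Control and 0.271 ± 0.014 in CAP1-KO, with no overlap between groups. Each of these sums was itself higher in every CAP1-KO library than in every Control library. WH2-domain proteins carry the same short actin-binding motif as thymosins: of 15 tested, 0 rose and 1 fell (median log2 fold change -0.15), with 0 higher and 7 lower at an unadjusted p under 0.05, where 15.3% of all tested genes were lower. The one that fell, Wipf3, a partner of N-WASP, had 41.9 ± 2.05 and 31.5 ± 2.01 CPM in the Control and CAP1-KO groups (-0.40 on the log2 scale, limma adjusted p = 0.0390). Wipf3 was called in 7 of 13 alternatives. The call was lost with the Xist covariate, with no filter on low values, or without FF1, FF2, FCRE3 or FCRE5.

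RPEL-domain proteins, which sense actin monomers and include the MRTF coactivators Mkl1 and Mkl2, had 0 of 6 called (median -0.20). The most expressed, Phactr1, measured 274 ± 26.9 and 219 ± 0.82 CPM (limma adjusted p = 0.0886), and Phactr3 measured 117 ± 2.72 and 99.9 ± 5.59 CPM (limma adjusted p = 0.0886). Formins and Ena/VASP proteins, which elongate filaments from profilin-actin, had 0 of 17 called (median -0.12), where Evl measured 377 ± 41.1 and 299 ± 20.5 CPM and Daam1 255 ± 15.2 and 242 ± 4.43 CPM. By limma-voom 0 of the RPEL and 0 of the formin and Ena/VASP genes were called. At an unadjusted limma p under 0.05, 3 of 6 RPEL and 6 of 17 formin and Ena/VASP genes were lower and 0 higher. Of all tested genes, 15.3% were lower and 7.74% higher at that threshold. These groups moved with FF4: without that library, limma called 10 of 15 WH2, 4 of 6 RPEL and 9 of 17 formin and Ena/VASP genes lower, and 1 of the last group higher, where 18.9% of all genes were called lower. The summed level of the 6 RPEL genes was 592 and 588 CPM in FF1 and FF2, 535 CPM in FF4, and between 472 and 487 CPM in CAP1-KO.

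The tested genes whose pattern over the 6 libraries was most like that of Cap1 (Pearson correlation of log2(CPM + 1)) were Ctps2 (r = 0.997), Col9a3 (0.995) and Kbtbd7 (0.992). Of these, Col9a3, a collagen chain, fell from 64.8 ± 1.60 to 51.0 ± 1.35 CPM (limma adjusted p = 0.0205). This call was lost with the Xist covariate or without FF1, FF2, FCRE3 or FCRE5 (8 of 13 alternatives called Col9a3). Ctps2, a CTP synthase, measured 67.3 ± 0.33 and 63.7 ± 0.22 CPM and did not pass (limma adjusted p = 0.295). For Tmsb10, the other member with the largest estimated change, they were Tmc7 (r = 0.995), Chd7 (0.986) and Megf10 (0.985), none of which passed the test. These correlations describe 6 libraries in 2 groups, so the group difference itself is part of them.

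**Figure D4:**
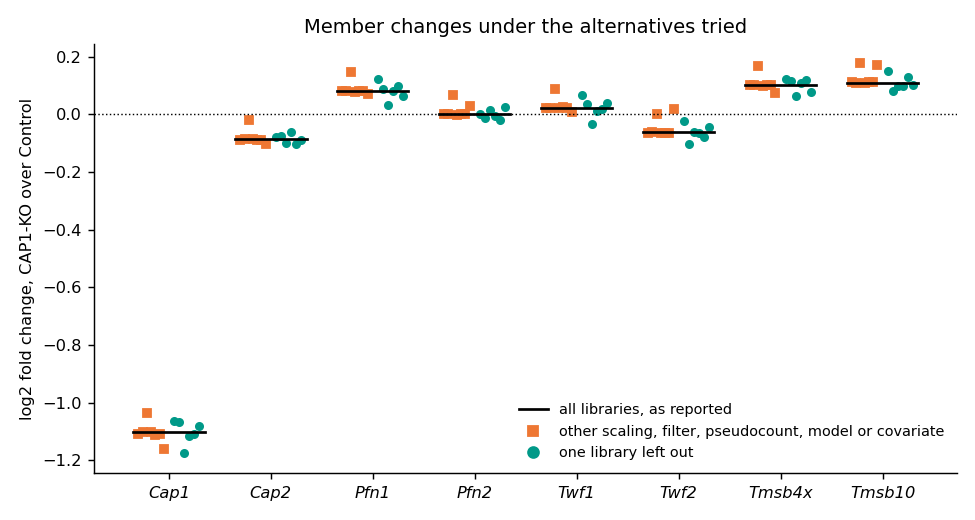
Log2 fold change of each member (vertical axis, CAP1-KO over Control) as reported (black line), under 7 other scalings, filters, pseudocounts, models or covariates (orange squares) and with 1 library left out (green circles, 6 a gene). Cap1 stays between -1.18 and -1.04, and the other members between -0.10 and 0.18.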

How the data were processed

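Cerebral cortex RNA of 3 Control and 3 CAP1-KO embryos was sequenced as strand-specific poly(A) libraries, per the labels' protocols. STAR, edgeR and the builds GRCm38 and mm10 are named per the submitters' processing notes, without versions. Neither the read counter nor the annotation is given in the sources used here. The authors deposited log2 normalized counts per library, per the file headers, and their own log2 fold change, p-value, FDR and F score. Library columns were assigned to groups from the genotype in their names, and not to single samples, since their numbers are not, as a set, the replicate numbers of the labels.

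Antilogs of the deposited log2 values shared an offset of 0.0584 CPM. Once it was removed, 100% of values under 2000 reads lay within 0.01 of a whole read, so 1 CPM equals 31.2 to 37.3 reads. Genes averaging 1 CPM or more were tested by limma 3.58.1 under R 4.3.3, its variance trend enabled, on log2(CPM + 1), a scale that understates changes of low genes. P-values were Benjamini-Hochberg adjusted over 13885 genes, threshold 0.05, and the fit was tested on simulated reads. With 3 against 3 libraries an exact permutation test cannot go below p = 0.1. Limma p-values set the group difference against the spread of these libraries within groups, moderated with that of all tested genes. Exonic lengths came from GENCODE M21 (GRCm38), and coordinates and upstream sequences from RefSeq GRCm38.p6.

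The 8 members and all gene lists were chosen with earlier results of these data known. Named genes are the members, the actin isoforms, up to 4 called genes of each other list (or its 2 most expressed), and the 3 genes most like Cap1 and like the most changed other member. The test of 1 marker gene is not reported here. Figures used matplotlib 3.10.9.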

Additional observations from a re-analysis of the deposited data

How the results depend on the processing

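Cap1 was called lower in all 13 alternatives (log2 fold change -1.18 to -1.04, limma adjusted p up to 0.00939), and none of the other 7 members was called in any of them. Their lowest adjusted p under any alternative was 0.121, for Tmsb10 with scaling to total reads, where Tmsb10 reached 0.18, Tmsb4x 0.17 and Pfn1 0.15 on the log2 scale and the 95% intervals excluded 0. The sign of the uncalled Pfn2, Twf1 and Twf2 differed from that reported in 4, 1 and 2 of the 13. Counts over all genes were less stable. The number of higher genes was 23 with the Xist covariate and ranged from 33 to 1292 in leave-one-out fits. The number of lower genes was 3 with the Xist covariate and 20 without a filter on low values, and ranged from 3 to 2622 in leave-one-out fits. The high ends are the fit without FF4, and the cause was not tested. The low ends are fits without FCRE5. Without FF1, 37 genes were higher and 6 lower, without FF2 50 and 12, without FCRE3 65 and 7, and without FCRE4 77 and 175. The ratios of actin to each binder family were within 1.5 times of the reported values throughout, for CAPs from 3.54-fold to 3.77-fold when a library was left out, and 3.55-fold without division by length (both chosen after seeing the data). No paired analysis was possible because the numbers of the library columns are not, as a set, the replicate numbers of the labels, and the groups share only the column number 4.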

Other observations

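Other profilin and beta-thymosin genes were little expressed in this tissue. Pfn4, a testis-enriched profilin, measured 3.64 ± 0.62 in Control and 4.38 ± 0.09 CPM in CAP1-KO (n = 3 each, limma adjusted p = 0.299), and Tmsb15b1 measured 1.52 ± 0.10 and 1.58 ± 0.18 CPM (limma adjusted p = 0.892). Pfn3 had 15 reads and Tmsb15a 1 read over all 6 libraries. Tmsb15b2 and Tmsb15l had 0 reads in every library, against a floor of 3 reads that covers counting error only. Neither of the 2 tested genes was called by limma or limma-voom, and 0 had an unadjusted p under 0.05.

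Meningeal and choroid plexus transcripts differed between the CAP1-KO libraries. The 8 meningeal fibroblast markers summed to 18.3, 97.2 and 85.9 CPM in FCRE3, FCRE4 and FCRE5, and to between 16.6 and 17.9 CPM in Control. The 5 choroid plexus markers summed to between 50.8 and 111 CPM in CAP1-KO and between 0.48 and 4.02 CPM in Control. Most of the CAP1-KO sum was Ttr, at 90.9, 104 and 47.0 CPM in FCRE3, FCRE4 and FCRE5. Clic6 and the little expressed Folr1 were also higher without overlap between groups. Otx2 overlapped, and Kl had 3 reads in each group. Tmsb10 measured 413 CPM in FCRE3, the CAP1-KO library with the fewest meningeal transcripts, and 395 and 411 CPM in FCRE4 and FCRE5.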
